A study of Mus musculus with 12 samples.

Results

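Fatty acid desaturases and elongases are the enzymes that set the double bonds and the length of the acyl chains in membranes and stored fat. The 10 members described here are the genes Scd1, Scd2, Fads1, Fads2, Fads3, Elovl1, Elovl4, Elovl5, Elovl6 and Elovl7. They were taken by symbol from a table of 25284 genes, and the set was chosen by family name with 1 measured result in view, namely that the Scd2 level was higher in treated mice. Their differences between treated and control mice are therefore given as a description. Test results are printed beside them but carry no weight for the set.

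Total RNA of the thoracic aorta of 12 mice was sequenced. All 12 were male ApoE-/- mice, which lack apolipoprotein E and develop atherosclerosis, ate a diet rich in fat and cholesterol and were 18 weeks old. For 8 weeks, minipumps under the skin delivered AZ6983, an agonist of the alpha 7 nicotinic acetylcholine receptor (α7nAChR), at 50 µmol per kg per day to 6 mice (called A1 to A6 here) and vehicle to 6 controls (C1 to C6). Both groups carry the ApoE deletion and received the diet, and no group of normal mice was compared.

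Stearoyl-CoA desaturases (Scd) place a first double bond into saturated acyl chains and yield oleate and palmitoleate. The Fads enzymes add further double bonds to dietary linoleate and alpha-linolenate on the way to arachidonate and the long omega-3 acids, in alternation with elongases of the Elovl family, which catalyse the first and rate-limiting condensation of each round of elongation. Many of these genes are known targets of SREBP-1c, a product of Srebf1, and of the liver X receptors, and Scd1 is among the most abundant transcripts of fat tissue.

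The counts assigned to genes ranged from 23810036 to 35864666 per mouse. Smooth muscle markers were abundant, with Myh11 at 6143 CPM (counts scaled to the size of the library) and Acta2 at 5806 CPM on average in controls, but so were markers of the fat that surrounds the aorta. Fabp4, a fatty acid carrier of adipocytes, averaged 2650 CPM in the control group and 2561 CPM in the AZ6983 group, and Ucp1, the uncoupling protein of brown fat, averaged 2627 and 1869 CPM. The summed level of 9 white fat markers was 3513 to 8081 CPM in C1 to C6 and 4997 to 8502 CPM in A1 to A6, and that of 8 brown fat markers 2745 to 4586 and 2482 to 6001 CPM, with medians of 4269 and 2670 CPM and with Zic1 at 0 in at least 1 mouse. Of the 9 white fat markers, 6 had a log2 fold change above 0 and 3, Fabp4 among them, below. The mean log2 CPM of these 9 was 7.69 in controls and 7.85 in AZ6983 mice. Ucp1 had the highest mean CPM of the brown fat markers in each group. Of the 7 brown fat markers that passed a filter on low counts, 3 had a log2 fold change above 0 and 4 below. Their mean log2 CPM was 7.89 in controls and 7.83 in AZ6983 mice. In such a whole organ, fewer cells of a type and less RNA per cell cannot be told apart. Markers of other cells also moved with the groups or stood apart in 1 mouse, and are given as a description, since the lists were chosen with these data known. The summed level of 7 neutrophil markers was 17.2 to 56.4 CPM in controls and 35.5 to 251 CPM in AZ6983 mice, and that of 6 endothelial markers 1001 to 1191 CPM and 1108 to 1320 CPM. The 7 thymocyte markers summed to 917 CPM in A4 and to 1.93 to 35.6 CPM in the other 11 mice, and without A4 the log2 fold change of Scd2, described below, was 0.97 as with all mice. The part of these cells in the values below was not tested. The share of reads on no gene was 8.02% to 12.7% in controls and 11.2% to 14.9% in AZ6983 mice.

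Scd1 and Scd2 lie in 1 cluster on chromosome 19 (GRCm38), with Scd1 at chr19:44394455-44407879 on the minus strand, Scd2 at chr19:44293674-44306864 on the plus strand, and Scd3 and Scd4 beside them. Their likeness matters for counting, since reads that fit more than 1 place were set aside before the table was made. Over the aligned coding sequence, Scd1 was 89.6% identical to Scd2, and the longest identical run was 147 bases, longer than a read of 75 bases. Over 917 windows of 75 bases of that alignment, the 2 genes differed at a median of 4 bases and at 0 to 29. The first window with the median number is shown, from the coding sequence of each gene in GENCODE M21 (bases 151 to 225 of Scd1 and 160 to 234 of Scd2), with the bases that differ in capitals.
Scd1: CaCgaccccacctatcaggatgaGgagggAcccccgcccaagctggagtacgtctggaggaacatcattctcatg
Scd2: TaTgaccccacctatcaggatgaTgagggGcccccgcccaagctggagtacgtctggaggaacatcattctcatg
Of all windows of 75 bases in the whole transcript, 3.24% for Scd1 and 1.8% for Scd2 also occurred in another gene, so most of each transcript could be told apart from its relatives. For Elovl6 the share was 2.28%, and for each of the other 7 members it was 0. The Fads genes lie in a second cluster on chromosome 19, with Fads3 at chr19:10041569-10060110, Fads2 at chr19:10062765-10101746 and Fads1 at chr19:10182888-10196877. Fads2 is on the minus strand and the other 2 are on the plus strand. Their coding sequences were less alike, at 65.9% for Fads1 and Fads2 and 68.8% for Fads2 and Fads3.

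The 250 bases before the start site were read from a RefSeq table (GRCm38.p6), which lists 7 of the 10 members with 8 windows. The windows of Fads2 and Elovl5 are shown, since both genes belong to the making of polyunsaturated chains and the table lists both. In Fads2 (chr19:10101504-10101753, minus strand) the capitals mark a GC box, GGGCGG, at -186 to -181, counted so that -1 is the last base before the start. In Elovl5 (chr9:77917115-77917364, plus strand) they mark the 2 copies of CCAAT on the opposite strand, at -71 to -67 and -17 to -13. The start of Fads2 in the RefSeq table lies inside the GENCODE gene, which spans chr19:10062765-10101746. Most of the Fads2 window, with the GC box, is thus within that gene.
Fads2: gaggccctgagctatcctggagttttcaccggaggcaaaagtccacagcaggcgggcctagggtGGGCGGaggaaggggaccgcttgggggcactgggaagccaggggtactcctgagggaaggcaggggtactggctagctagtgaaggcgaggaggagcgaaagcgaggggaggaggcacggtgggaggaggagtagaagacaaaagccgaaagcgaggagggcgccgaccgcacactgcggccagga
Elovl5: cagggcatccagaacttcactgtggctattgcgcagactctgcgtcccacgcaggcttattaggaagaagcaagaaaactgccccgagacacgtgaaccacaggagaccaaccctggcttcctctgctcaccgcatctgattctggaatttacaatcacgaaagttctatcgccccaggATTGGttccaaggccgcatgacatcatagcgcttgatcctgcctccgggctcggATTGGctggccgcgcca
On either strand, GGGCGG occurred in 6 of the 8 member windows (Elovl1, Elovl4, Elovl7, Fads2 and Fads3) and in 32.7% of all 32851 promoters of the table. CCAAT occurred in 3 of the 8 (Elovl1, Elovl5 and Fads3) and in 33.8% of all promoters. The sterol element TCACNCCAC and its other form TCANCCCAC occurred in 0 of the 8, and in 1.05% and 1.17% of all promoters. A direct repeat of GGTCA with 4 bases between the copies occurred in 0 of the 8 and in 0.0457% of all promoters. Other spacings were not searched, so this count does not cover the elements of liver X receptors. These letters are a description of the windows only.

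The levels of the members spanned several orders of magnitude, which the plot of levels per length shows. To compare genes, CPM were divided by the length of the gene's exons. Scd1 stood at 5512 ± 1731 CPM per kb (SD, n = 12 mice), which was rank 6 of 15250 genes, and in single mice it was the gene with the second or the third highest count. It took 1.79% to 2.92% of all counts on genes in controls and 2.60% to 4.29% in AZ6983 mice. Scd2 followed at 118 ± 45.5 CPM per kb (rank 269) and Elovl6, which elongates palmitate to stearate, at 67.6 ± 24.2 (rank 494). Per kb, Scd1 exceeded Scd2 in 12 of 12 mice, by 49.0-fold on the geometric mean.

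**Figure D1:**
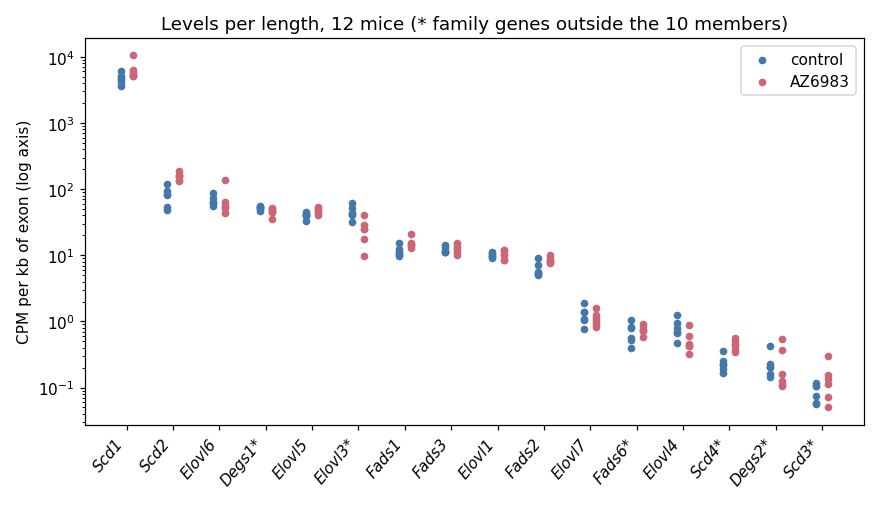
Level of each desaturase and elongase in each mouse, as CPM per kb of exon on a log axis, with 1 point per mouse (blue, 6 controls, red, 6 AZ6983 mice). Scd1 lies between 3660 and 10478 CPM per kb, above every other gene of the family, and Elovl4 at 0.321 to 1.25 is the lowest of the 10 members.

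Below these, Elovl5, the elongase of polyunsaturated chains, had 44.0 ± 6.00 CPM per kb (rank 821). The desaturases Fads1 (delta-5) and Fads3 and the elongase Elovl1, which acts on saturated very long chains, came next with 13.5 ± 3.06, 12.3 ± 1.53 and 10.1 ± 1.23. Fads2 (delta-6) had 7.42 ± 1.75. Elovl7 and Elovl4, the latter known for the very long chains of retina and skin, were the lowest with 1.20 ± 0.336 and 0.660 ± 0.271. In this order 3 pairs of neighbours changed places in some mice. Scd2 was above Elovl6 in 9 of 12 mice (3 controls and 6 AZ6983 mice), Fads1 above Fads3 in 7 of 12, and Elovl1 above Fads2 in 11 of 12. The other 6 pairs kept their order in 12 of 12 mice, although Elovl6 and Elovl5 were level in mouse A4, at a ratio of 1.001.

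Of the 10 members, all 10 passed the filter on low counts, and 0 of 10 were called in AZ6983 mice compared with controls at 10% FDR by edgeR, where 0% of the 15857 genes tested were called. At an unadjusted p under 0.05, 4 of 10 were higher and 1 of 10 lower in AZ6983 mice, beside 7.38% and 2.81% of all genes, or 10.2% in either direction. DESeq2 on every gene called 1 of 10, Scd2, beside 0.523% of the genes it tested. The 6 AZ6983 mice and the 6 controls did not overlap for 1 of 10 members, again Scd2 and higher in AZ6983 mice, beside 0.259% of all genes that were apart in that direction, 0.151% in the other and 0.41% in either. Because this contrast helped to choose the members, these counts carry no weight for the list. The median log2 fold change was 0.14 over the members and 0.01 over all genes tested, with 8 members above 0 and 2 below.

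Scd2 is the stearoyl-CoA desaturase of brain, and of many tissues outside the liver. In controls Scd2 had 266, 504, 455, 290, 446 and 657 CPM in C1 to C6. In AZ6983 mice Scd2 had 737, 851, 755, 852, 1031 and 892 CPM in A1 to A6. Every AZ6983 mouse was above every control, with C6 the closest control and A1 the closest AZ6983 mouse. The mean level was 436 ± 144 CPM in controls and 853 ± 106 CPM after treatment (SD, n = 6 per group). This was a log2 fold change of 0.97 ± 0.195 (SE, edgeR), which stayed between 0.86 and 1.12 when any 1 mouse was left out. When the percentage of reads outside genes was added to the model, the Scd2 value was 0.60 ± 0.246. This percentage had a median of 10.1% in controls and 12.4% in AZ6983 mice, so it cannot be fully told apart from treatment. Its r with Scd2 was 0.70 in controls (exact permutation p = 0.1, adjusted p = 0.6, rho = 0.89). In AZ6983 mice the r was 0.37 (exact permutation p = 0.456, adjusted p = 0.756, rho = 0.6). Scd2 took 0.0266% to 0.0691% of the counts in controls, and a narrower range of 0.0761% to 0.0893% in AZ6983 mice.

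Scd1 is the main stearoyl-CoA desaturase of liver and fat. Scd1 had 20222, 24796, 21700, 17907, 29505 and 23477 CPM in C1 to C6. In A1 to A6 it had 25497, 26305, 27518, 24856, 51257 and 30557 CPM. The groups overlapped, since C5 was above 4 AZ6983 mice, and A5 stood far above the rest. The log2 fold change of Scd1 was 0.43 ± 0.216 with all mice and 0.21 without A5. In A5 the 10 most abundant genes held 30.2% of the counts, against 16.02% to 22.1% in the other 11 mice, and the brown fat markers had their highest summed level, 6001 CPM.

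The proportion of the 2 desaturases therefore differed between mice. Per kb, Scd1 was 39.9 to 85.0 times Scd2 in controls, with a median of 62.0. In AZ6983 mice it was 32.6 to 55.5 times Scd2, with a median of 38.5. The 2 groups overlapped, because C6 had the lowest ratio among controls and A5 the highest among AZ6983 mice.

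**Figure D2:**
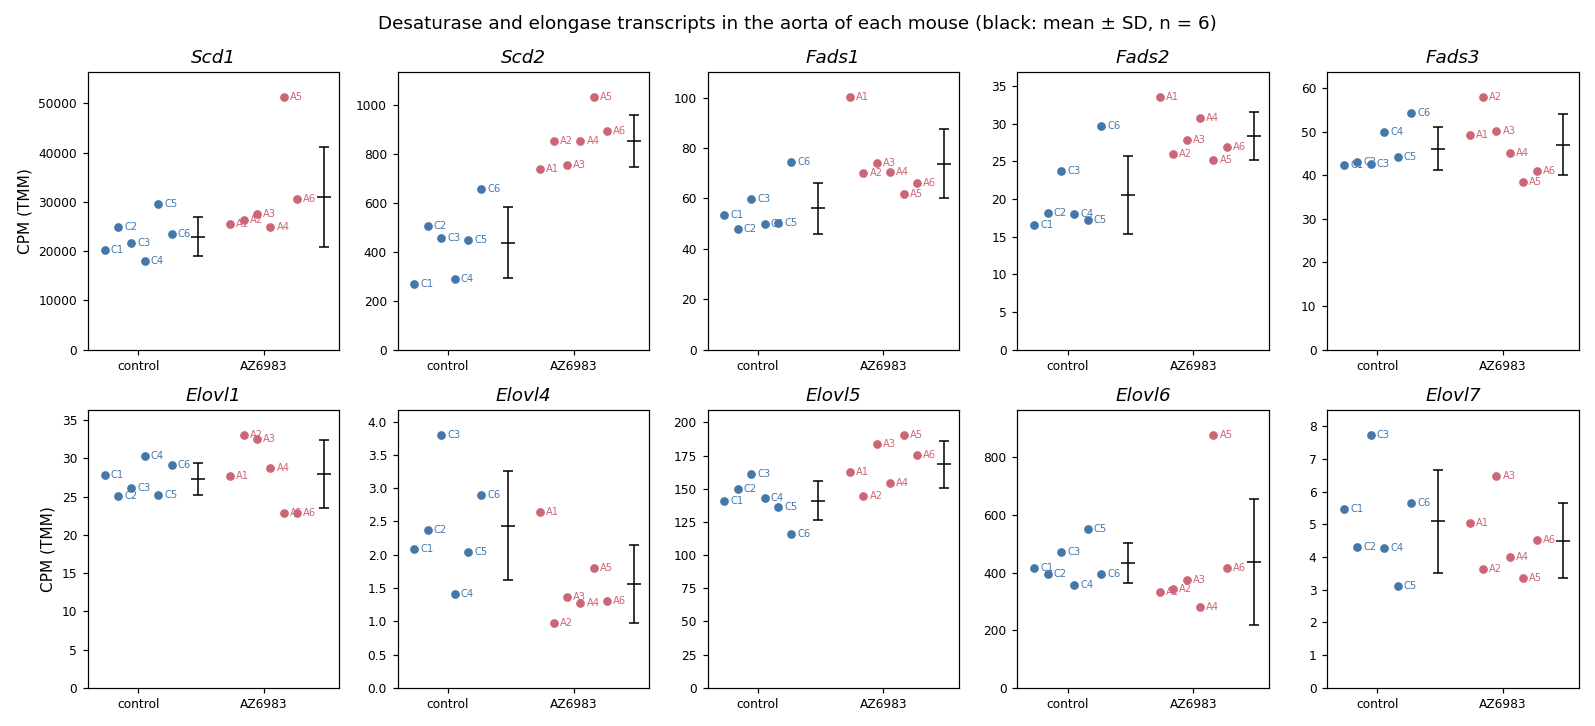
CPM (normalised with TMM) of the 10 members in each of 6 control (blue) and 6 AZ6983 mice (red), with the mean and SD of each group in black and each axis starting at 0. Scd2 is the only panel in which the groups do not overlap, and mouse A5 stands above the others for Scd1 (51257 CPM) and Elovl6 (877 CPM).

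Fads1 and Fads2 are the delta-5 and delta-6 desaturases of the route from linoleate to arachidonate. Fads1 had 53.5, 47.7, 59.8, 50.0, 50.3 and 74.6 CPM in C1 to C6 and 100.2, 69.9, 74.1, 70.6, 61.9 and 66.0 CPM in A1 to A6. Fads2 had 16.6, 18.1, 23.7, 18.0, 17.2 and 29.7 CPM in the controls and 33.5, 26.0, 27.8, 30.8, 25.2 and 26.9 CPM in AZ6983 mice. For both genes C6 was the highest control and lay among the AZ6983 mice, while the other 5 controls were below all 6 AZ6983 mice. The log2 fold change was 0.40 ± 0.131 for Fads1, and 0.29 without A1, the highest mouse. For Fads2 it was 0.47 ± 0.141, and 0.60 without C6. The ratio of Fads1 to Fads2 per kb overlapped between the groups, with 1.90 ± 0.188 in controls and 1.77 ± 0.167 in AZ6983 mice. Fads3, a desaturase that acts on sphingoid bases and on vaccenate, had 42.5 to 54.3 CPM in the control group and 38.5 to 58.0 CPM in the AZ6983 group. Its log2 fold change was 0.03 ± 0.1002 and was below 0 in 4 of 23 other settings.

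Elovl5 works between the Fads2 and Fads1 steps. It had 141, 150.0, 161, 143, 136 and 116 CPM in C1 to C6. In A1 to A6 it had 163, 145, 183, 154, 190.3 and 175 CPM. The 4 highest values were all from AZ6983 mice, and A2 and A4 lay within the range of the controls. The log2 fold change was 0.26 ± 0.087, with a range of 0.20 to 0.28 when any 1 mouse was left out.

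The elongase that supplies Scd1 with stearate, Elovl6, did not share this pattern. Elovl6 had 417, 394, 473, 359, 552 and 397 CPM in the controls and 331, 343, 373, 282, 877 and 417 CPM in AZ6983 mice. A1, A2 and A4 were below all controls and A5 above all mice, so the mean of the AZ6983 group, 437 ± 220.0 CPM, rests on a wide spread beside 432 ± 69.7 CPM in controls. The log2 fold change of Elovl6 was 0.02 ± 0.244, and it turned to -0.33 without A5.

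The elongases of very long chains had log2 fold changes near 0 or small counts. Elovl1 had 25.1 to 30.3 CPM in C1 to C6 and 22.8 to 33.0 CPM in A1 to A6. Its log2 fold change was 0.03 ± 0.101 and was below 0 in 4 of 23 other settings. Elovl7 had 3.12 to 7.72 CPM and 3.35 to 6.47 CPM, with a log2 fold change of -0.18 ± 0.218 that was above 0 in 1 of 23 other settings. Elovl4 was the member with the largest negative value. It had 2.09, 2.37, 3.79, 1.41, 2.05 and 2.89 CPM in C1 to C6 and 2.64, 0.971, 1.37, 1.28, 1.798 and 1.30 CPM in A1 to A6. Thus 4 AZ6983 mice were below all controls while A1 was above 4 of them, and these values rest on 27 to 110 counts per mouse. The log2 fold change of Elovl4 was -0.64 ± 0.273 (-0.86 to -0.48 with any 1 mouse left out), and -0.39 ± 0.361 when the percentage of reads outside genes was added to the model.

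**Figure D3:**
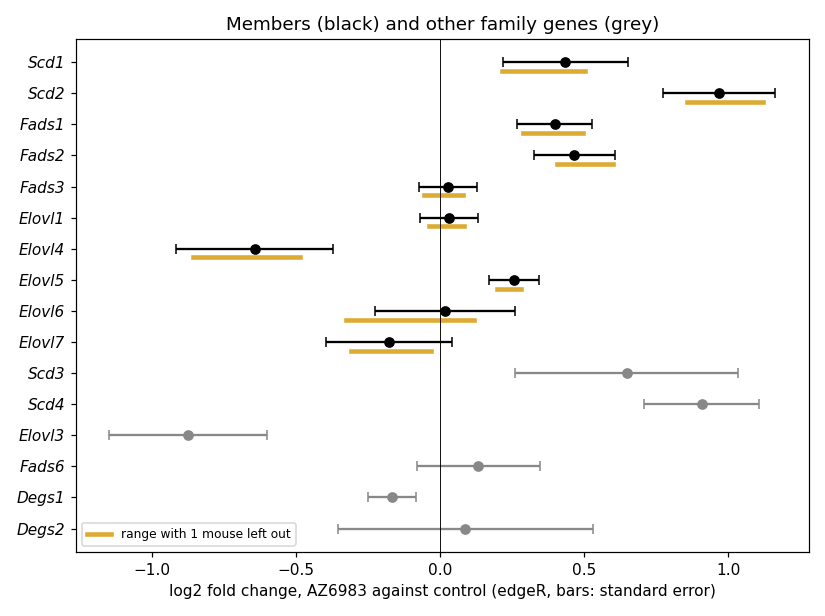
Log2 fold change of AZ6983 mice against controls for the 10 members (black) and 6 other genes of the families (grey), with the standard error from edgeR as bars and, in yellow, the range of each member's value with 1 mouse left out. Scd2 has the highest value (0.97) and Elovl3 the lowest (-0.87), and the yellow ranges of Fads3, Elovl1 and Elovl6 cross 0.

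The other desaturases and elongases were followed as a list of 8 genes, of which 7 were in the table and 6 passed the filter. At an unadjusted p under 0.05, 1 was higher and 1 lower, beside 7.38% and 2.81% of all genes tested. At 10% FDR 0 were called by edgeR. Scd4, a desaturase best known from heart, had 0.632 to 1.36 CPM without and 1.30 to 2.09 CPM with AZ6983, from 17 to 62 counts. Its log2 fold change was 0.91 ± 0.200, with an adjusted p of 0.428 by edgeR and 0.0362 by DESeq2. Elovl3, an elongase of brown fat and skin, had 62.2 to 120 CPM in the control group and 19.1 to 80.9 CPM in the AZ6983 group. For Elovl3, 5 of 6 AZ6983 mice were below all controls, the exception was again A5, and the log2 fold change was -0.87 ± 0.274 (edgeR adjusted p = 0.447). Ucp1 also had 5 of 6 AZ6983 mice below all controls, at 1834 to 3034 CPM in controls and 1228 to 3728 CPM with AZ6983. Its log2 fold change was -0.49 ± 0.251. Among the 7 brown fat markers tested, 4 including Ucp1 were below 0 and 3 above. The part of Ucp1 or of brown fat in the Elovl3 value was not tested. Scd3, whose coding sequence is 90.4% identical to that of Scd1, had only 5 to 26 counts per mouse and a value of 0.65 ± 0.388. Fads6 (0.13), Degs2 (0.09) and Degs1, the dihydroceramide desaturase (-0.17), had small log2 fold changes, and Elovl2 did not pass the filter at 1 to 34 counts.

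The rest of the pathway was followed through 6 further lists. With the family list they made 78 genes, of which 73 were tested, and 0 of 73 were called at 10% FDR by edgeR. At an unadjusted p under 0.05, 6 of 73 were higher and 1 lower, beside 7.38% and 2.81% of all genes tested. The same shares stand beside the counts of the single lists below. The median log2 fold change of the 73 genes was 0.03. DESeq2 on every gene called 3 of the pathway genes, beside 0.523% of the genes it tested. These were Srebf1, Lpcat3 and Scd4, all higher in AZ6983 mice.

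Among 16 regulators of the family, 2 were higher at an unadjusted p under 0.05 and the median log2 fold change was 0.06. Srebf1, which encodes SREBP-1, had 112 to 218 CPM in C1 to C6 and 248.9 to 342 CPM in A1 to A6, without overlap. Its log2 fold change was 1.02 ± 0.155, with an edgeR adjusted p of 0.157, and no gene tested had a smaller adjusted p. The highest level was in A4, the mouse with the thymocyte markers. C6 was the highest control for Srebf1, as it was for Scd2, Fads1 and Fads2. Srebf2, the regulator of cholesterol synthesis, had 0.45 ± 0.132 (edgeR adjusted p = 0.447) and Pgrmc1 -0.14 ± 0.070.

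Among 16 genes that use unsaturated acyl chains, 2 were higher at an unadjusted p under 0.05 and the median was 0.04. Lpcat3, which places polyunsaturated chains into phospholipids, had 34.8 to 43.8 CPM without and 49.1 to 73.9 CPM with AZ6983, again without overlap. Its log2 fold change was 0.60 ± 0.098 (edgeR adjusted p = 0.200). Ptgs1, a cyclooxygenase, had 0.19 ± 0.081, and Pla2g4a, the phospholipase that releases arachidonate, had -0.33 ± 0.155.

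The electron donors of the desaturases and the other steps of the elongation cycle had log2 fold changes between -0.23 and 0.10. Of the electron donors 5 of 6 were tested, with 0 in either direction at an unadjusted p under 0.05 and a median of -0.06, and the 3 with the smallest p were Cyb5r3 (-0.23), Cyb5r1 (-0.10) and Cyb5a (0.10). Of the other steps of the elongation cycle 6 of 7 were tested, again with 0 in either direction and a median of -0.07, led by Hacd2 (-0.23), Hsd17b12 (-0.12) and Hacd1 (-0.08). For fatty acid synthesis and activation all 12 were tested, 1 was higher and the median was 0.13, led by the acyl-CoA synthetase Acsl3 (0.42 ± 0.140, edgeR adjusted p = 0.448), Acss2 (0.35) and Acaca (0.38). For very long chain use and the peroxisomal step 12 of 13 were tested, with 0 in either direction and a median of -0.02, and with Hsd17b4 at -0.17 and Cers6 at 0.19.

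The variation between mice of the same group was not used to choose the members. After the group means were taken out, Pearson's r over the 12 mice was computed for the 45 pairs of members, as a description. The points share their libraries, whose fat markers differ. The median r was 0.19 and the range was -0.71 to 0.92, with 26 pairs above 0 and 19 below. Scd1 and Elovl6 had the highest r, 0.92 (Spearman's rho 0.81), which was 0.61 without A5 and C5, the 2 mice farthest from the median of Scd1. Fads1 and Fads2 had an r of 0.85 (rho 0.75), which was 0.67 without A1 and C6. Fads3 and Elovl1 had an r of 0.86 (rho 0.87), which was 0.87 without A2 and C6, and so did not rest on these mice. Scd1 and Scd2 had an r of 0.54 (rho 0.78), which was 0.71 without A5 and C5.

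**Figure D4:**
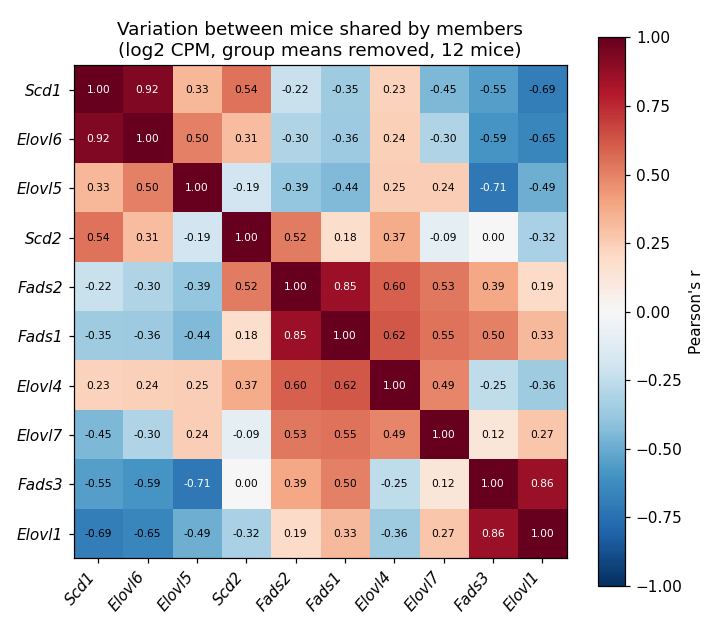
Pearson's r between members over 12 mice, from log2 CPM with the mean of each group taken out (red, above 0, blue, below 0). Scd1 with Elovl6 (0.92), Fads3 with Elovl1 (0.86) and Fads1 with Fads2 (0.85) are the highest pairs, and Fads3 with Elovl5 (-0.71) is the lowest.

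Fat content was compared with the members within each group. For 5 measures (Srebf1, the mean log2 CPM of white fat, brown fat and Schwann cell markers, and the percentage of reads outside genes), 10 members and 2 groups, 100 correlations over 6 mice each were tested by exact permutation. At an unadjusted p under 0.05 there were 10, and 0 had an adjusted p under 0.10. With 6 mice the smallest p is 0.00278. Of the 10, 6 were with brown fat markers.

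Among AZ6983 mice Scd2 was higher where brown fat markers were higher (r = 0.92, exact permutation p = 0.00556, adjusted p = 0.185, rho = 0.94, p = 0.0167). Without A5 and A6 the r was 0.84. Among controls the sign was the other way (r = -0.58, exact permutation p = 0.231, adjusted p = 0.653, rho = -0.09), and the difference between the groups was not tested. With brown fat markers as a covariate the log2 fold change of Scd2 was 0.97 ± 0.199. That model fits 1 slope for both groups, although the signs differed, so it cannot show the part of brown fat in Scd2. This part was not tested. Fads1 was lower where brown fat markers were higher in both groups, with r = -0.94 in controls (exact permutation p = 0.0250, adjusted p = 0.389, rho = -0.94, r = -0.52 without C2 and C6). In AZ6983 mice r was -0.68 (exact permutation p = 0.00278, adjusted p = 0.139, rho = -1, r = -0.95 without A5 and A6). With these markers as a covariate the log2 fold change of Fads1 was 0.37 ± 0.086.

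For Scd1 and Elovl6 the relation to brown fat among AZ6983 mice rested on 2 mice. The r of Scd1 was 0.98 (exact permutation p = 0.0333, adjusted p = 0.389, rho = 0.71) and 0.18 without A5 and A6. The r of Elovl6 was 0.96 (exact permutation p = 0.0361, adjusted p = 0.389, rho = 0.71) and -0.05 without them. Fads2 followed Fads1, with r = -0.68 to brown fat markers in AZ6983 mice (exact permutation p = 0.0278, adjusted p = 0.389, rho = -0.89) and -0.86 without A5 and A6. Fads1 was also lower where white fat markers were higher among controls (r = -0.73, exact permutation p = 0.00278, adjusted p = 0.139, rho = -1, r = -0.95 without C2 and C6). The remaining 3 pairs were Fads3 with Srebf1 in AZ6983 mice (r = -0.87, exact permutation p = 0.0333, adjusted p = 0.389, rho = -0.71, r = -0.97 without A2 and A4), Elovl4 with Schwann cell markers in controls (r = 0.84, exact permutation p = 0.0389, adjusted p = 0.389, rho = 0.77, r = 0.84 without C1 and C3) and Elovl4 with the percentage of reads outside genes in AZ6983 mice (r = -0.81, exact permutation p = 0.0361, adjusted p = 0.389, rho = -0.71, r = -0.78 without A2 and A6).

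**Figure D5:**
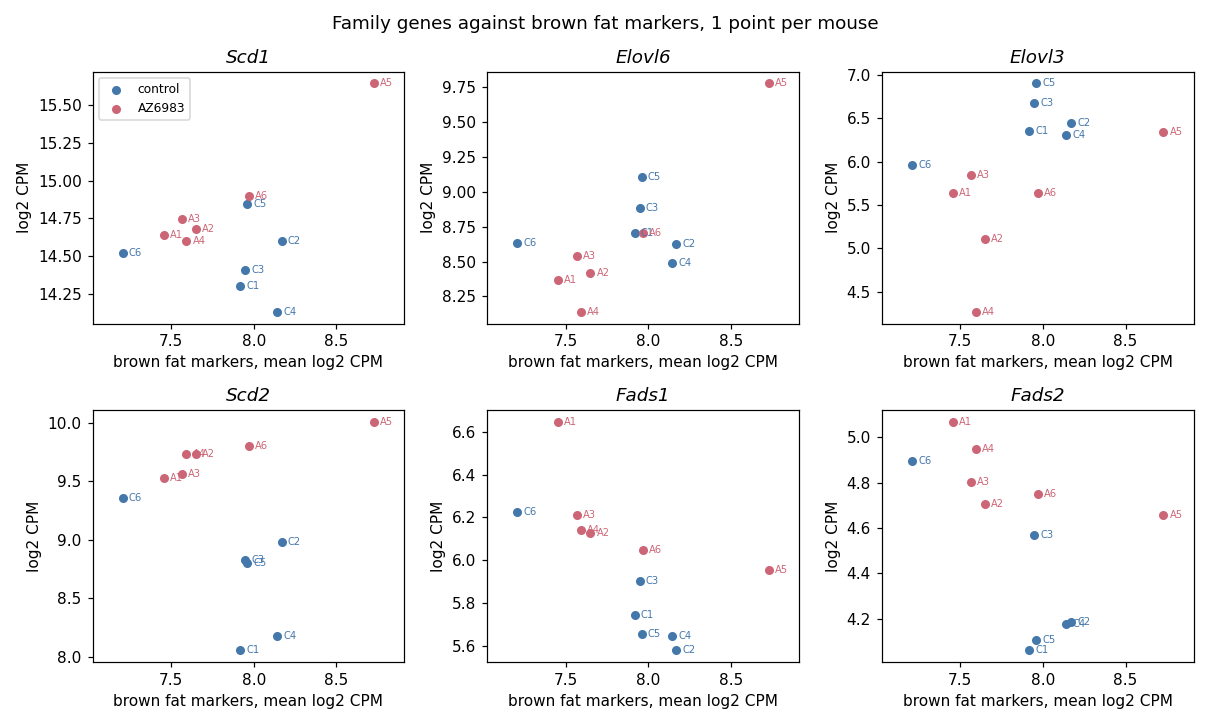
Log2 CPM of Scd1, Elovl6, Elovl3, Scd2, Fads1 and Fads2 against the mean log2 CPM of brown fat markers, with 1 point per mouse (blue, controls, red, AZ6983). A5 has the highest mean log2 level of brown fat markers (8.73) and C6 the lowest (7.21), every AZ6983 point lies above every control for Scd2, and Fads1 is lower toward the right in each group.

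Srebf1 was compared with its known target Scd2 in the same way. The r was 0.64 in controls (exact permutation p = 0.133, adjusted p = 0.6, rho = 0.71) and -0.57 without C2 and C6, so it rested on these mice. It was 0.68 in AZ6983 mice (exact permutation p = 0.203, adjusted p = 0.634, rho = 0.6) and 0.91 without A2 and A4. Neither passed the threshold. The 10 members did not share 1 direction with Srebf1. Their r ran from -0.64 to 0.75 in controls (median 0.33) and from -0.87 to 0.68 in AZ6983 mice (median -0.10). The Schwann cell markers, which mark cells that express Scd2, had an r with Scd2 of 0.71 in controls (exact permutation p = 0.0917, adjusted p = 0.6, rho = 0.77, r = 0.81 without C1 and C3) and 0.07 in AZ6983 mice (exact permutation p = 0.942, adjusted p = 0.976, rho = 0.20, r = 0.16 without A2 and A4). Their summed level was 210 to 332 CPM in the control group and 215 to 307 CPM in the AZ6983 group, and with them as a covariate the log2 fold change of Scd2 was 0.88 ± 0.178.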

How the data were processed

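The authors removed ribosomal RNA, made stranded libraries and sequenced 75 bases from both ends of each fragment. The deposited table holds raw counts per gene symbol. The submitters' processing notes name CASAVA 1.8.2, STAR 2.5.2b, HTSeq 0.6.1p1 and the build mm10. The annotation and the strand setting of the counting are not given in the sources used here. Its 3 rows without a gene name entered neither library sizes nor tests, and held 8.02% to 14.9% (no gene), 18.1% to 23.2% (not unique) and 0.606% to 0.698% (ambiguous) of each mouse's reads.

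Groups came from the sample labels. The column used for A1 carries 3 of the 4 digits of that mouse's number, so values without A1 were also computed. No source says how mice were housed or processed together. The p-values take the mice as independent, which could not be checked. A gene's precision depends on its count, and counts are given where they are low. Chi-square tests over genes found no library that was a copy of another (12.9 to 250 per degree of freedom over 66 pairs).

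AZ6983 mice were compared with controls by the quasi-likelihood test of edgeR 4.0.16 under R 4.3.3, after TMM normalization and filterByExpr, with Benjamini-Hochberg adjustment over 15857 genes and a threshold of 10% FDR. CPM use TMM library sizes, and log2 CPM a prior count of 2. Alternatives were DESeq2 1.42.0 (the tool of the authors, on every gene and on filtered genes), limma-voom (limma 3.58.1), other normalizations, no filter, 5% FDR, 4 covariates and each mouse left out in turn. Lengths, positions and coding sequences came from GENCODE M21 by symbol. The comparisons of groups by edgeR, DESeq2 and limma-voom were first checked on simulated counts, and the correlation test on values of known order.

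The members and all lists were chosen with earlier results of these data known. The rule for named genes took all members and family genes, Srebf1, and the 5 genes most like Scd2, Scd1 and Fads1. From each other pathway list it took the genes past the threshold or else the 3 with the smallest p. It also took the 3 most abundant markers of a list, but of these only Myh11, Acta2, Fabp4 and Ucp1 are given here. Lpcat3 and Srebf1 are described further because their groups did not overlap, which was seen in the values. A gene that the rule for named genes covers is not reported here.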

Additional observations from a re-analysis of the deposited data

Results flagged for a closer look

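In each group of 6 mice the highest and the lowest value were compared with the rest by Dixon's criterion (the gap to the nearest value over the range of the group). Of 42 groups 6 were marked, where chance alone marks about 1 in 20, or 2.1. Among members these were Scd1 in A5 (log2 CPM 15.65, the other 5 AZ6983 mice 14.60 to 14.90), Elovl6 in A5 (9.78, the others 8.14 to 8.71) and Fads1 in A1 (6.65, the others 5.95 to 6.21). Among marker lists they were white fat in C2 (mean log2 CPM 8.24, the other controls 7.41 to 7.72), brown fat in C6 (7.21, the others 7.92 to 8.17) and endothelium in C6 (6.99, the others 7.14 to 7.23). By this mean A5 had the highest and C6 the lowest brown fat level of all mice, while by summed CPM 4 AZ6983 mice (2482 to 2709 CPM) were below C6 (2745 CPM), and C6 was the control with the highest Scd2, Fads1 and Fads2.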

How the results depend on the processing

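Over all genes edgeR called 0 at 10% FDR. The count was 92 with DESeq2 on every gene (65 higher and 27 lower), 84 with DESeq2 on filtered genes, 19 with brown fat markers as a covariate, 2 with library totals only, 1 with Schwann cell markers as a covariate and 0 to 27 with 1 mouse left out (27 without A5, of which 5 were higher and 22 lower, 1 without A1 and 1 without C6). Among pathway genes the count was 0, but 3 with DESeq2 on every gene and 3 on filtered genes (Srebf1, Lpcat3 and Scd4), 2 with the brown fat covariate (Srebf1 and Lpcat3), 1 with library totals only (Lpcat3) and 0 to 2 with 1 mouse left out (Srebf1 and Lpcat3 without A5, Srebf1 without C6). The causes were not tested. The correlation count stayed at 0 in 3 other settings. Each of 230 alternative log2 fold changes of members moved by less than 1 SD within groups. This SD is the spread of single mice and is wider than the SE (0.37 beside 0.195 for Scd2). It is thus a loose limit, within which Scd2 fell to 0.60 and Elovl6 to -0.33. The sign turned in 4 of 23 settings for Fads3, 4 for Elovl1, 9 for Elovl6 and 1 for Elovl7. No normalization moved the median of all genes by more than 0.02 on the log2 scale. Depth limits Elovl4 and Scd4, with 27 to 110 and 17 to 62 counts per mouse. No paired analysis was possible because the labels give each mouse its own number and pair no mice across groups.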

Other observations

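The genes most like a member were sought over all genes tested, by Pearson's r of log2 CPM over the 12 mice after group means were taken out, as a description without a test. For Scd1 these were Lrrc39 (0.98), Tkt, the transketolase of the pentose phosphate pathway (0.97), Acly, which makes cytosolic acetyl-CoA (0.95), Shtn1 (0.95) and Cyb5b, a cytochrome b5 (0.95). For Scd2 they were B930095G15Rik (0.91), Rnf213 (0.90), Cul7 (0.90), Sc5d, a desaturase of cholesterol synthesis (0.90), and Ttyh2 (0.90). For Fads1 they were Add1 (0.98), Dtx3 (0.98), Zfp945 (0.95), Paqr7 (0.94) and Btrc (0.94).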
